A study of Mus musculus with 69 samples.

Results

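Fc receptors are the proteins through which macrophages bind the constant part of antibodies, and 6 of their genes were followed here: Fcgr1, Fcgr3, Fcgr4, Fcgr2b, Fcer1g and Fcgrt. They were taken by gene symbol from tables that list 24537 genes (24527 in the F1 tables), and all 6 were present in every table. The cells were mouse bone marrow-derived macrophages (BMDMs), grown for 7 days in medium with M-CSF and then left untreated (basal) or given 20 ng/ml IL-4, and poly(A) RNA was sequenced. According to the methods, healthy female mice of 8 to 12 weeks were used throughout.

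The first table held macrophages of the strains C57BL/6J (abbreviated C57), BALB/cJ (BALB), PWK/PhJ (PWK), NOD/ShiLtJ (NOD) and SPRET/EiJ (SPRET), basal and after 24 hours of IL-4, with 3 samples per group except 2 for PWK basal. A second table held C57 and SPRET cells at 0, 1, 6 and 24 hours of IL-4, with 2 samples per group. The third table held the same times in Egr2 fl/fl cells and in LyzM-Cre Egr2 fl/fl cells, again with 2 samples per group. All cells of that table carry floxed Egr2, and the second genotype also carries Cre driven by LyzM, which acts across the myeloid lineage. Cre itself and the loss of Egr2 cannot be told apart, since the labels name no control with Cre alone. The last pair of tables held allele-specific values of F1 macrophages from crosses of C57 with NOD or with SPRET, basal and after 24 hours of IL-4, with 2 samples per group. The labels do not say whether samples came from separate animals, so p-values measure only the spread between these samples.

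Fcgr1 encodes the high-affinity IgG receptor, and Fcgr3 and Fcgr4 encode activating receptors of lower affinity. These receptors lack a signalling tail of the activating kind and pair with the FcR gamma chain, encoded by Fcer1g, whose phosphorylated motif recruits the kinase Syk. Fcgr2b encodes the single inhibitory IgG receptor, which recruits phosphatases and raises the threshold for activation by immune complexes. Fcgrt encodes the heavy chain of the neonatal Fc receptor FcRn, which pairs with beta-2 microglobulin inside the cell and saves IgG from degradation. IL-4 signals through the transcription factor STAT6 and drives the alternatively activated state of macrophages.

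In mm10, 4 of the genes lie together on chromosome 1: Fcgr2b at chr1:170960559-170976071, Fcgr4 at chr1:171018926-171029761, Fcgr3 at chr1:171051169-171059403 and Fcer1g at chr1:171229572-171234349. Fcgr4 is on the plus strand and the other 3 are on the minus strand. Fcgr1 lies at chr3:96282909-96293969 and Fcgrt at chr7:45092993-45103822, both on the minus strand. Reads were 75 bases long, and 94 of the 1627 distinct 75-base stretches of the Fcgr3 transcripts (5.78%) also occur in Fcgr2b transcripts, where they make up 2.48% of 3791. Reads from those stretches cannot be assigned to one of these 2 genes. Fcgr2b had 219 further stretches that occur in other genes, and Fcgr1, Fcgr4, Fcer1g and Fcgrt shared none with any other gene.

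The promoters of the 4 IgG receptor genes, whose response to IL-4 differed between strains, are given as 300 bases from RefSeq (GRCm38.p6), written 5′ to 3′ on the strand of the gene (Fcgr3 has another annotated start close by, not shown) and starting 250 bases before the annotated start. Both strands were searched for TTCNNNNGAA (the type STAT6 prefers), TTCNNNGAA (the interferon gamma activated site bound by other STAT proteins), GAGGAA (the core of the PU.1 site) and GCGNGGGCG (the EGR type), and capitals mark the matches. The coordinates are chr3:96293920-96294219 for Fcgr1, chr1:170976022-170976321 for Fcgr2b, chr1:171059354-171059653 for Fcgr3 and chr1:171018676-171018975 for Fcgr4.
Fcgr1: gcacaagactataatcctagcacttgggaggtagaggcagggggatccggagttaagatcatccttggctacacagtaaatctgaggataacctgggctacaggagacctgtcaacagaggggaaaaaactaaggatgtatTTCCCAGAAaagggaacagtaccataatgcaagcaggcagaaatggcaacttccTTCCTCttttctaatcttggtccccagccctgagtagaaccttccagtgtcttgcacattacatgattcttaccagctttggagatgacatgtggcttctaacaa
Fcgr2b: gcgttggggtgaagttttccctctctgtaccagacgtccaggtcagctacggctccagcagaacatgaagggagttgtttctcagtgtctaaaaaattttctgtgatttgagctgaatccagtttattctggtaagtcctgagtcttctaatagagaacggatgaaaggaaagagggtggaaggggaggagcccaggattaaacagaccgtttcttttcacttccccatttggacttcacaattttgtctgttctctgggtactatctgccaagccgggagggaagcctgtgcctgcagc
Fcgr3: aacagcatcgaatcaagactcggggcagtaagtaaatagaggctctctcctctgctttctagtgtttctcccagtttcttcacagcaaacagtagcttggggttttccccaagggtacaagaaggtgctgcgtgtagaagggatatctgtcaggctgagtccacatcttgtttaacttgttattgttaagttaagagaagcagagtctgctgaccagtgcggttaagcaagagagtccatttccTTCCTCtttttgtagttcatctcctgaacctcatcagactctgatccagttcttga
Fcgr4: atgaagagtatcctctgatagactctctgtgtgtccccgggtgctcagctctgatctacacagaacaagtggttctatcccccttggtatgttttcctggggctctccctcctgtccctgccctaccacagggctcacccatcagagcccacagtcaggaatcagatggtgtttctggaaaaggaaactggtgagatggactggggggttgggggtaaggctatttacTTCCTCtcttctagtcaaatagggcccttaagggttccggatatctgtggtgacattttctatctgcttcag

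The Fcgr1 window held TTCCCAGAA, a match to TTCNNNGAA, and the reverse of the PU.1 core. The Fcgr3 and Fcgr4 windows held the reverse of the PU.1 core close to the start, and the Fcgr2b window held none of the 4 patterns, nor did those of Fcer1g and Fcgrt. Among 32851 promoter windows of that length, 8.3% held TTCNNNGAA, 6.95% held TTCNNNNGAA, 28.3% held GAGGAA and 5.55% held GCGNGGGCG. These matches describe letters in the reference window of C57 and say nothing on binding.

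Library totals ran from 7.02 to 22.5 M tags (mapped reads, M for mega) over the 29 libraries of the strain table, from 5.7 to 24.0 M over the 16 of the time course and from 4.69 to 32.9 M over the 16 of the Egr2 table. Every library had the macrophage markers (Adgre1, Csf1r, Cd68, Itgam, Lyz2, Mertk), with a summed level of 9308 to 30180 TPM (transcript abundance per length, scaled to the same total in each library) in the strain table, lowest in PWK. The sum was mostly Lyz2, at 5278 to 25933 TPM in that table, while Itgam was 17.6 to 138 and Mertk 0.569 to 8.02. B, T and NK cell markers summed to at most 0.666 TPM there, dendritic cell markers to 1.68 and fibroblast markers to 5.97, of which Pdgfrb alone reached 5.96. Mast cell and basophil markers (Cpa3, Mcpt8, Kit, Gata2), cells that also carry Fcgr3, Fcgr2b and Fcer1g, differed between strains: they summed to 4.93 to 9.05 TPM in SPRET and to 0.231 to 0.784 in C57. Mcpt8 alone reached 8.88 TPM, while Cpa3 stayed at or below 0.36 and was at 0 in 10 of the 29 libraries. Neutrophil markers differed between strains: their sum, mostly S100a8 and S100a9, was 550 to 600 TPM in PWK and 249 to 404 in SPRET over both conditions. It went from 106 to 130 TPM at baseline to 16.8 to 24.1 after IL-4 in C57, from 52.3 to 59.5 to 17.1 to 19.2 in BALB and from 40.9 to 52.7 to 15.1 to 18.6 in NOD. Of the granule genes that define the lineage, Camp was at 0 in 1 library and reached 12.3 TPM, Ngp was at 0 in 10 and reached 4.56, and Ltf was at 0 in 12 of the 29 and reached 4.64. Fc receptors are also expressed by neutrophils, and the part of these cells and of mast cells and basophils in the strain and IL-4 differences was not tested. In bulk RNA, fewer cells of a type and less RNA per cell cannot be told apart.

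The first question was how the Fc receptor genes differ between strains at baseline and how far IL-4 moves them. Differences are given on the log2(TPM + 1) scale with the standard error (SE) of one limma model over all 29 libraries, and a gene passed at an adjusted p (Benjamini-Hochberg, over all 11907 genes tested) under 0.05. The 6 genes fell in a few patterns after 24 hours of IL-4: Fcgr3 went up and Fcer1g went down in every strain, Fcgr2b went up in all strains but NOD, where it did not pass, Fcgr1 fell in all strains but NOD, where it rose, and Fcgr4 rose in C57 and fell in BALB, PWK and SPRET. The time course gave the opposite direction for Fcgr4 in C57 (0.41 here, -0.76 there). For Fcgrt no difference passed. Of the 30 tests (6 genes in 5 strains), 11 were higher after IL-4, 12 were lower and 7 did not pass. By strain, 5 of 6 genes passed in C57, BALB, PWK and SPRET and 3 of 6 in NOD, where 35.5%, 34.2%, 24.7%, 44.4% and 34.3% of all genes did so in C57, BALB, PWK, SPRET and NOD. Of all genes, 15.0% were higher and 20.5% lower in C57, 9.45% and 24.8% in BALB, 28.2% and 6.07% in NOD, 18.6% and 6.08% in PWK and 31.4% and 12.9% in SPRET. On the log2(TPM + 1) scale, the changes over 2-fold were those of Fcgr2b in C57, PWK and SPRET, of Fcgr3 in C57 and of Fcgr1 in BALB. This scale understates low genes: Fcgr1 in SPRET went from a mean of 1.42 to 0.356 TPM, which is -0.83 on it and -1.74 with a pseudocount of 0.1. Among all genes, 3.80% (C57), 2.08% (BALB), 1.19% (NOD), 2.08% (PWK) and 3.94% (SPRET) passed with over 2-fold.

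**Figure D1:**
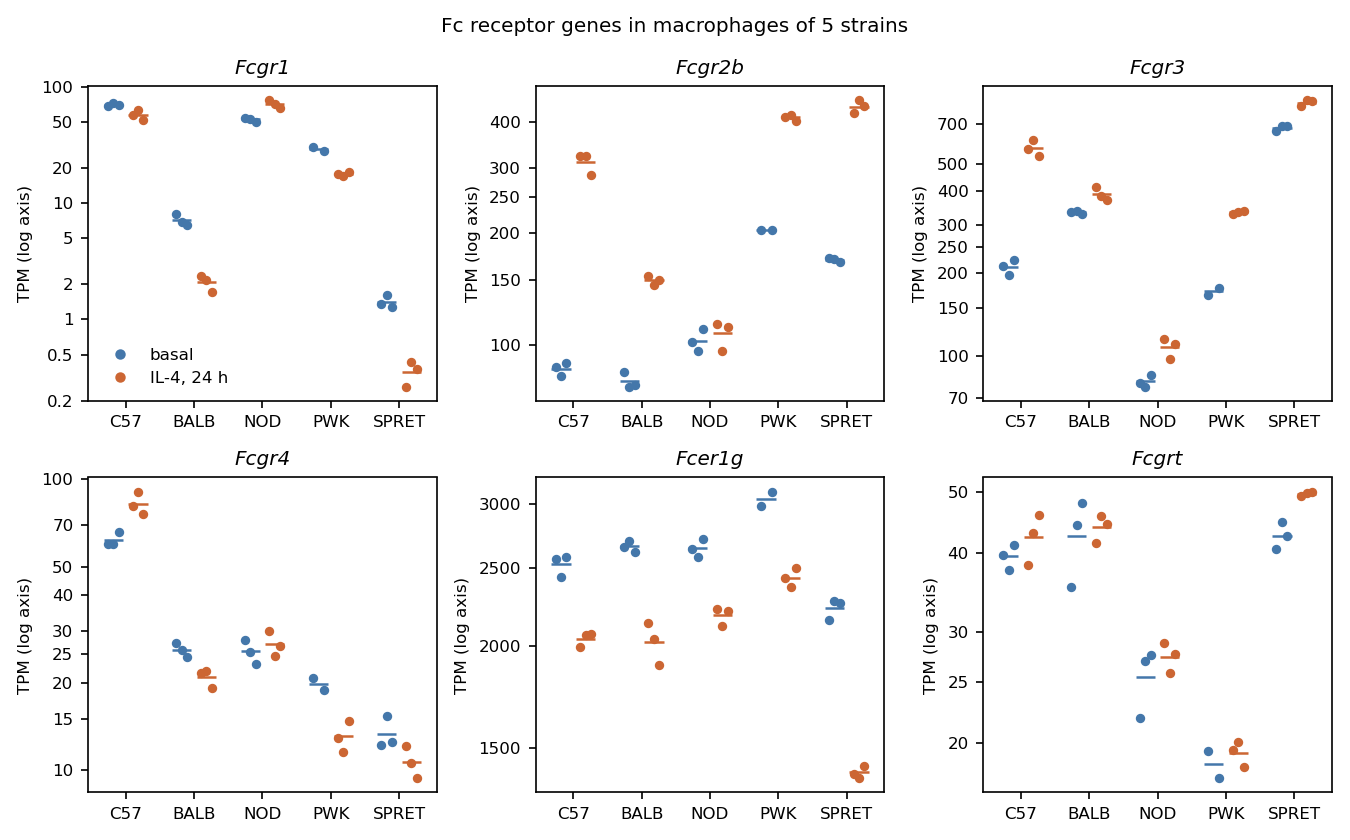
Level of each Fc receptor gene in TPM (log axis, scaled per panel) by strain, basal in blue and after 24 hours of IL-4 in orange. Points are libraries and bars are group means. Fcgr1 spans 0.265 to 76.3 TPM, while Fcer1g stays between 1375 and 3106.

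Fcgr1 had the widest range of the set. At baseline it was 68.3, 72.2 and 70.0 TPM in C57, 53.8, 53.2 and 49.9 in NOD, and 30.5 and 28.2 in PWK. It was 8.07, 6.93 and 6.52 TPM in BALB and 1.37, 1.61 and 1.27 in SPRET. The strains did not overlap, in the order C57, NOD, PWK, BALB, SPRET, and every pair of strains passed the test. Against C57, the log2 difference of Fcgr1 was -3.13 (SE 0.085, adjusted p = 4.71e-20) in BALB and -4.88 (SE 0.085, adjusted p = 7.5e-25) in SPRET. The smaller gap between NOD and C57 depended on scaling, with a log2 difference of -0.42 in TPM and -0.02 after median ratio scaling. After IL-4, Fcgr1 was 57.3, 62.7 and 51.3 TPM in C57, 17.8, 17.2 and 18.5 in PWK and 2.35, 2.19 and 1.72 in BALB. It was 0.265, 0.427 and 0.377 TPM in SPRET and 76.3, 70.3 and 65.7 in NOD. Thus all IL-4 libraries lay below the basal ones in 4 strains and above them in NOD. The log2 difference was -1.41 (SE 0.085, adjusted p = 1.55e-12) in BALB, -0.69 (SE 0.095) in PWK and -0.83 (SE 0.085) in SPRET. In NOD it was 0.43 (SE 0.085, adjusted p = 0.000412), where the median over all genes was 0.12. The fall in C57 was small, at -0.30 (SE 0.085, adjusted p = 0.0076), and did not pass without the third IL-4 replicate (-0.22, adjusted p = 0.0652). The response itself differed from that of C57 in all 4 strains. The difference was -1.11 (SE 0.12) in BALB, -0.39 (SE 0.127) in PWK, -0.54 (SE 0.12) in SPRET and 0.73 (SE 0.12) in NOD. All of them rest on the small C57 fall of this table. At the last time of the time course the fall in C57 was -2.11 (SE 0.148). In Egr2 fl/fl cells it was -2.01 (SE 0.104) at the last time. Both were larger than the falls of BALB, PWK and SPRET here. BALB, PWK and NOD were not part of those tables, so their differences from C57 were not tested there. The SPRET value followed the pseudocount, at -1.44 with 0.1 and 0.02 (adjusted p = 0.885) with 5, and the time course gave 1.98. The PWK difference did not pass when any of 5 single libraries was left out (-0.44 to -0.32), among them either basal library of PWK.

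Fcgr3, the activating receptor that also carries immune complex signals in mast cells and NK cells, was at baseline the most abundant of the IgG receptor genes in all strains but NOD and PWK. At baseline it was 663, 687 and 689 TPM in SPRET, 335, 338 and 330 in BALB, 212, 197 and 223 in C57, 167 and 177 in PWK and 79.4, 77.2 and 85.3 in NOD. SPRET and BALB, which were lowest for Fcgr1, were highest for Fcgr3. Every pair of strains passed for Fcgr3 as well, although the basal difference between PWK and C57 (-0.29) did not pass after median ratio scaling (-0.08). After IL-4 it was 568, 613 and 537 TPM in C57, 413, 384 and 369 in BALB and 115, 97.5 and 110 in NOD. It was 329, 336 and 337 TPM in PWK and 814, 855 and 849 in SPRET. Fcgr3 rose in every strain, without overlap between basal and IL-4 libraries, but to a different extent. The log2 rise was 1.44 (SE 0.057, adjusted p = 1.48e-16) in C57, 0.95 (SE 0.064) in PWK, 0.41 (SE 0.057) in NOD, 0.30 (SE 0.057) in SPRET and 0.21 (SE 0.057, adjusted p = 0.00515) in BALB. The response was smaller than in C57 by 1.22 log2 units (SE 0.081) in BALB, 1.03 (SE 0.081) in NOD, 1.13 (SE 0.081) in SPRET and 0.48 (SE 0.086) in PWK, and each of these differences passed. They rest on the C57 rise of this table, which was 0.10 (adjusted p = 0.126) in the time course, where the 24-hour response of SPRET and C57 differed by 0.06 (SE 0.072, adjusted p = 0.572). In Egr2 fl/fl cells Fcgr3 did rise over 24 hours, from a mean of 289 to 550 TPM. The spread between strains at baseline was larger than the change with IL-4 in any of them.

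Fcgr4, the activating receptor for IgG2 subclasses, was highest in C57. At baseline it was 59.8, 60.1 and 66.2 TPM in C57, 27.4, 25.8 and 24.5 in BALB and 28.1, 25.5 and 23.2 in NOD. It was 20.7 and 18.8 TPM in PWK and 12.2, 15.3 and 12.5 in SPRET. BALB and NOD did not differ beyond their spread (-0.02), although median ratio scaling put NOD higher by 0.43 (adjusted p = 0.000963), and the other strain pairs passed. After IL-4 Fcgr4 was 81.2, 90.7 and 76.1 TPM in C57, 21.6, 22.0 and 19.1 in BALB and 30.0, 24.6 and 26.8 in NOD. It was 12.9, 11.5 and 14.8 TPM in PWK and 12.1, 10.6 and 9.38 in SPRET. The IL-4 libraries lay above all basal ones in C57 and below all of them in BALB, PWK and, by a narrow margin, SPRET. Fcgr4 rose in C57 by 0.41 (SE 0.102, adjusted p = 0.0026; -0.76 in the time course) and fell in PWK by 0.57 (SE 0.114, adjusted p = 0.000517). The falls in BALB (-0.30, SE 0.102) and SPRET (-0.29, SE 0.102) were less secure. The BALB call did not pass without the third IL-4 replicate (-0.24, adjusted p = 0.121), without the first or the second basal replicate (-0.26 and -0.30), after median ratio scaling (-0.16) or after quantile normalization (-0.22). The SPRET call did not pass without the second or the third IL-4 replicate (-0.29 and -0.21) or the second basal replicate (-0.20). In NOD the difference was 0.08 (SE 0.102, adjusted p = 0.572). The response of Fcgr4 was smaller than in C57 by 0.97 log2 units (SE 0.153) in PWK, 0.71 (SE 0.144) in BALB and 0.70 (SE 0.144) in SPRET, while in NOD the difference of -0.33 (95% interval -0.62 to -0.03) did not pass. These differences rest on the C57 rise of this table. In the time course the 24-hour response of SPRET minus that of C57 was 0.59, of opposite sign, and did not pass.

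Fcgr2b, the inhibitory receptor, was lower at baseline in C57, BALB and NOD than in PWK and SPRET. It was 87.3, 82.1 and 89.1 TPM in C57, 84.4, 77.1 and 77.8 in BALB, 102, 96.0 and 110 in NOD, 204 and 204 in PWK and 172, 170 and 167 in SPRET. BALB and C57 overlapped and did not pass, and all other pairs did. After IL-4 it reached 324, 323 and 288 TPM in C57, 153, 145 and 150 in BALB and 413, 417 and 403 or 422, 457 and 440 in PWK and SPRET. NOD had 114, 96.0 and 112 TPM, overlapping its basal libraries. The log2 rise was 1.84 (SE 0.059, adjusted p = 1.9e-18) in C57, 1.37 (SE 0.059) in SPRET, 1.01 (SE 0.066) in PWK and 0.90 (SE 0.059) in BALB. In NOD the difference was 0.06 (SE 0.059, adjusted p = 0.443), with a 95% interval of -0.06 to 0.18. The response of NOD was smaller than that of C57 by 1.78 log2 units (SE 0.083, adjusted p = 9.02e-14), and BALB (-0.94, SE 0.083), PWK (-0.83, SE 0.088) and SPRET (-0.47, SE 0.083) also passed. PWK and SPRET passed at baseline and not after IL-4 (0.10, SE 0.059), where median ratio scaling gave -0.16 (adjusted p = 0.00724) and a fit of only these 2 groups gave 0.10 (adjusted p = 0.0332).

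**Figure D2:**
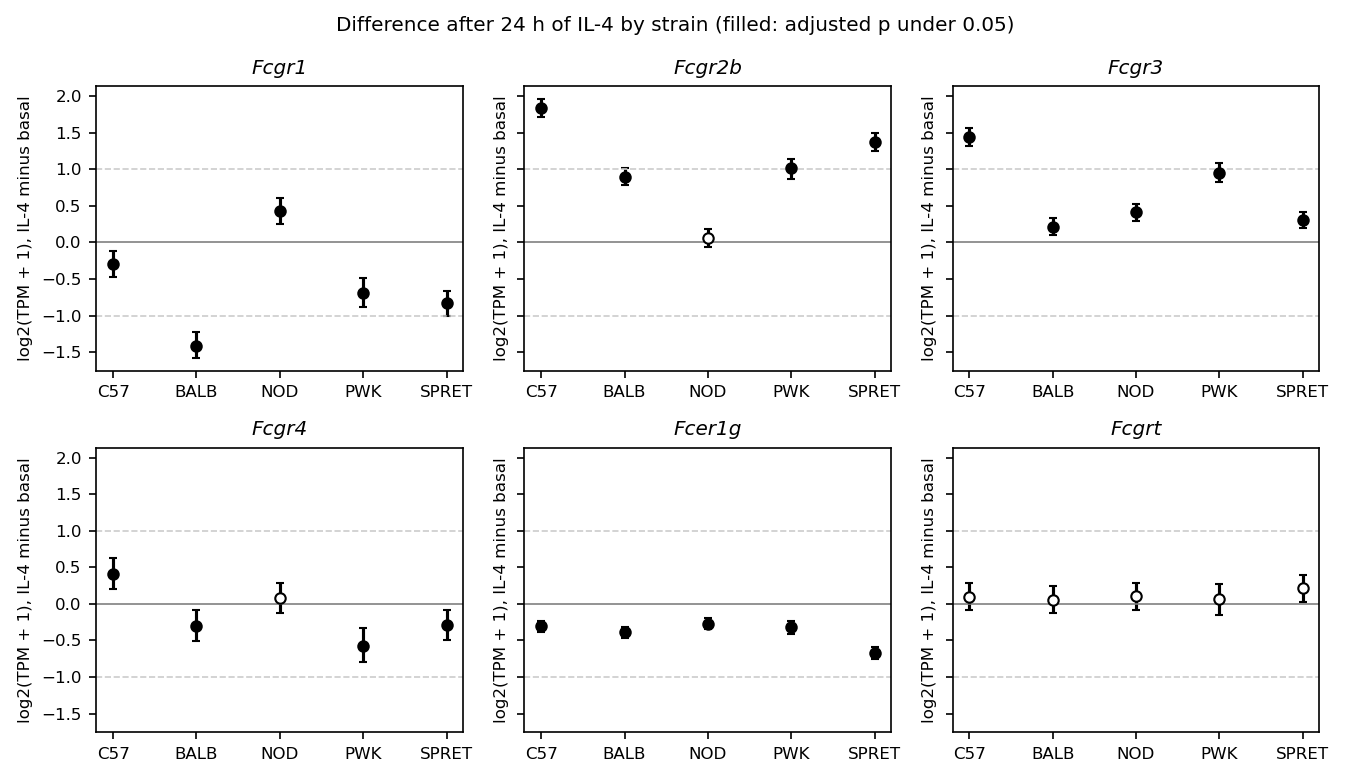
Difference in log2(TPM + 1) between 24 hours of IL-4 and basal by strain, with the 95% interval of the model; filled points passed at an adjusted p under 0.05 and dashed lines mark a 2-fold change. Fcgr2b is open in NOD alone, Fcgr1 is above 0 in NOD alone, and Fcgrt is open in all 5 strains.

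Fcer1g, the common signalling chain, was far more abundant than any receptor it serves and varied least between strains. At baseline it was 2563, 2438 and 2578 TPM in C57, 2654, 2703 and 2618 in BALB, 2643, 2580 and 2715 in NOD, 2987 and 3106 in PWK and 2155, 2276 and 2262 in SPRET. PWK was highest and SPRET lowest, and C57, BALB and NOD did not differ beyond their spread, although median ratio scaling put NOD above BALB by 0.46. After IL-4 it was 1996, 2066 and 2071 TPM in C57, 2140, 2045 and 1896 in BALB, 2225, 2122 and 2215 in NOD, 2430, 2367 and 2504 in PWK and 1393, 1375 and 1425 in SPRET. Every IL-4 library lay below every basal library of its strain. The log2 fall was -0.30 (SE 0.039) in C57, -0.39 (SE 0.039) in BALB, -0.32 (SE 0.043) in PWK and -0.67 (SE 0.039, adjusted p = 1.88e-13) in SPRET. In NOD it was -0.27 (SE 0.039), which did not pass after quantile normalization (-0.08, adjusted p = 0.265). SPRET was the one strain whose Fcer1g response differed from that of C57, by -0.37 (SE 0.054, adjusted p = 9.86e-06). The order of strains for Fcer1g changed with the scaling: under quantile normalization SPRET was above C57 at baseline (0.38) where TPM gave -0.18, and its gap to PWK of -0.45 became 0.04.

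Fcgrt varied by strain, and no difference with IL-4 passed. At baseline it was 39.7, 37.7 and 41.3 TPM in C57, 35.4, 44.4 and 48.1 in BALB, 40.6, 44.8 and 42.7 in SPRET, 21.9, 27.0 and 27.6 in NOD and 19.4 and 17.6 in PWK. C57, BALB and SPRET did not differ beyond their spread, and NOD (-0.62, SE 0.09) and PWK (-1.06, SE 0.1, adjusted p = 1.6e-09) were lower than C57. Median ratio scaling took the NOD difference to -0.23, which did not pass. The difference after IL-4 was between 0.05 and 0.11 log2 units in C57, BALB, NOD and PWK and 0.22 (SE 0.09, adjusted p = 0.0516) in SPRET. B2m, its partner chain, passed with IL-4 in BALB alone (-0.24).

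Over the 10 strain pairs, 52 of 60 tests of the 6 genes passed at baseline and 56 of 60 after IL-4. Of all genes, 43.2% (BALB), 74.2% (NOD), 61.3% (PWK) and 68.4% (SPRET) passed against C57 at baseline, and 44.4%, 66.7%, 61.6% and 73.4% after IL-4. Against BALB the shares were 75.0% (NOD), 66.0% (PWK) and 71.6% (SPRET) at baseline and 64.6%, 62.1% and 75.1% after IL-4. They were 64.4% and 66.8% between PWK and NOD, 82.0% and 81.0% between SPRET and NOD and 71.9% and 75.3% between SPRET and PWK, each at baseline and after IL-4. The share of the 6 genes was above that of all genes in both conditions, but the pairs share libraries and no test was made of this. Of 24 tests of a response against that of C57, 16 passed and 15 of them were lower. The shares among all genes were 15.8% for BALB, 33.3% for NOD, 22.4% for PWK and 33.4% for SPRET.

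The balance of activating and inhibitory receptors was described by the summed TPM of Fcgr1, Fcgr3 and Fcgr4 over that of Fcgr2b. The ratio at baseline was 3.98 ± 0.0725 (SD, n = 3) in C57, 4.61 ± 0.207 (n = 3) in BALB, 4.1 ± 0.143 (n = 3) in SPRET, 1.55 ± 0.0936 (n = 3) in NOD and 1.08 ± 0.0246 (n = 2) in PWK. After IL-4 it was 2.29 ± 0.096 in C57, 2.76 ± 0.144 in BALB, 1.93 ± 0.0342 in SPRET, 1.92 ± 0.101 in NOD and 0.888 ± 0.027 in PWK (n = 3 each). The IL-4 libraries lay below the basal ones in 4 strains and above them in NOD, where the inhibitory gene did not pass. The log2 change was -0.80 in C57, -0.74 in BALB, -1.08 in SPRET, -0.29 in PWK and 0.31 in NOD, and it moved with the genes summed: with Fcgr4 alone it was 0.02 in NOD and -1.61 in PWK, and without Fcgr3 it was 0.27 and -1.68. Fcgr3 made up 49.2% to 98.9% of the sum in single libraries of the strain table. In the time course the basal ratio was 2.17 ± 0.158 in C57 and 5.48 ± 0.4 in SPRET (n = 2 each). After 24 hours of IL-4 it was 1.0 ± 0.038 and 3.69 ± 0.177 there, so the 2 strains stood differently than in the strain table. No test was made on the ratio.

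Genes that act with the Fc receptors were counted from lists of the pathway. The first list held receptors that pair with the FcR gamma chain, together with the sister adaptor Tyrobp. Of 5 genes tested from it, 5 fell in C57, 4 in BALB and SPRET and 3 in PWK and NOD, and none rose. Their median log2 difference was -1.1 in C57, -0.74 in BALB, -0.49 in SPRET, -0.39 in NOD and -0.18 in PWK. Over all genes the median was -0.04 in C57, -0.11 in BALB, 0.11 in SPRET, 0.12 in NOD and 0.08 in PWK. The genes that fell were 20.5% of all in C57, 24.8% in BALB, 12.9% in SPRET, 6.07% in NOD and 6.08% in PWK, and those that rose were 15.0%, 9.45%, 31.4%, 28.2% and 18.6%. Clec4n, which encodes Dectin-2, fell by 2.33 in C57 and by 2.18 in SPRET, and Clec4e, which encodes Mincle, fell by 1.43 in C57. Among 18 genes of activating signalling downstream of the receptors, 6 rose and 8 fell in C57, 4 and 8 in BALB, 8 and 5 in NOD, 7 and 4 in PWK and 6 and 7 in SPRET, with medians of -0.12, -0.19, 0.10, 0.06 and 0.08. Lat, a membrane adaptor of Syk-type signalling, rose in all 5 strains by 1.04 (NOD) to 1.81 (BALB). Among 8 inhibitory genes, 1 rose and 4 fell in C57, 2 and 3 in BALB, 4 and 0 in NOD, 2 and 2 in PWK and 0 and 5 in SPRET, with medians of -0.12, -0.12, 0.12, -0.05 and -0.34. Ptpn6, which encodes the phosphatase SHP-1, differed by -0.63 in C57, -0.50 in BALB and -0.57 in SPRET. Of 12 other Fc-binding genes, 3 had levels that could be tested (Fcrl1, Trim21 and Fcrlb), of which 1 rose and 2 fell in C57, 0 and 2 in BALB, 0 and 1 in PWK and 0 and 0 in NOD and SPRET.

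For each Fc receptor gene, the genes most alike over the 10 group means were found among 11907 by Pearson's r, as a description. For Fcgr1 they were Rab7b (0.987), Epsti1 (0.984) and Rtp4 (0.972), and for Fcgr2b they were Ch25h (0.962), Zc3h12a (0.946) and Timm17b (0.941). For Fcgr3 they were Pes1 (0.983), Cnr2 (0.978) and Ero1l (0.976), and for Fcgr4 they were C1qb (0.956), Gm5431 (0.935) and Cd5l (0.932). For Fcer1g they were Fpr2 (0.94), Osgin1 (0.936) and Cpd (0.929), and for Fcgrt they were Rarg (0.987), Decr2 (0.985) and Arpc5 (0.98). None of the 6 was among the 3 genes most like another, and between Fcgr1 and Fcgr3 the r was -0.728. The points share their libraries, and the values carry no p.

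The time course asked when these changes appear in C57 and SPRET. All times share the basal libraries of their strain. Fcgr2b had risen in both strains by 1 hour and peaked at 6 hours. In C57 it was 192 and 177 TPM at 0 hours, 299 and 303 at 1 hour, 630 and 695 at 6 hours and 367 and 410 at 24 hours. In SPRET it was 113 and 122, then 219 and 205, then 678 and 672, and 209 and 180 TPM at 24 hours. The strains met at 6 hours, at a difference of 0.03 (SE 0.08, adjusted p = 0.784), and stood apart before and after. The rise at 1 hour was 0.70 (SE 0.08, adjusted p = 0.000134) in C57 and 0.85 (SE 0.08, adjusted p = 1.13e-05) in SPRET. At 6 hours it was 1.84 (SE 0.08) in C57 and 2.52 (SE 0.08) in SPRET, and the response differed between strains by 0.68 (SE 0.113, adjusted p = 0.0018). From 6 to 24 hours Fcgr2b fell by 0.77 (SE 0.08) in C57 and by 1.79 (SE 0.08, adjusted p = 2.93e-08) in SPRET, a step in which 33.8% and 22.6% of all genes passed.

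Fcgr3 also peaked at 6 hours, with a smaller change. It was 332 and 340 TPM, 369 and 401, 495 and 515, and 353 and 371 in C57 at 0, 1, 6 and 24 hours. SPRET had 641 and 626, 765 and 763, 822 and 839, and 740 and 683 TPM. Fcgr3 was above C57 in SPRET at each time, by 0.72 to 0.99 log2 units, and its rise at 6 hours was 0.59 (SE 0.051) in C57 and 0.39 (SE 0.051) in SPRET. At 1 hour it passed in SPRET (0.27, SE 0.051, adjusted p = 0.00395) and not in C57 (0.19, SE 0.051, adjusted p = 0.0582). The difference between those rises was 0.08 (SE 0.072, adjusted p = 0.777). At 24 hours the rise in C57 was 0.10 (SE 0.051, adjusted p = 0.126).

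Fcgr1 in C57 was 26.5 and 28.0 TPM at 0 hours, 22.9 and 27.4 at 1 hour, 16.6 and 16.2 at 6 hours and 4.62 and 6.56 at 24 hours. The libraries of 6 and of 24 hours lay below all earlier ones. The log2 difference from basal was -0.12 (SE 0.148) at 1 hour, -0.70 (SE 0.148, adjusted p = 0.005) at 6 hours and -2.11 (SE 0.148, adjusted p = 2.78e-07) at 24 hours. In SPRET Fcgr1 was between 0 and 0.244 TPM in all 8 libraries, so that a fall could hardly be seen. The response at 24 hours differed between strains by 1.98 (SE 0.21, adjusted p = 2.39e-05) but did not pass with a pseudocount of 0.1 (1.52, adjusted p = 0.0619). Fcgr4 in C57 was 37.3 and 36.8 TPM at 0 hours, 33.1 and 40.2 at 1 hour, 39.4 and 42.6 at 6 hours and 20.4 and 22.6 at 24 hours. It fell by 0.90 (SE 0.165) between 6 and 24 hours, after no earlier difference that passed, while SPRET stayed at 5.41 to 9.85 TPM. Neutrophil markers moved alongside in C57: their sum was 66.2 to 93.9 TPM at 0 hours, 63.1 to 80.1 at 1 hour, 52.3 to 62.9 at 6 hours and 6.31 to 7.97 at 24 hours, against 63.2 to 91.6 over all times in SPRET. That sum was mostly S100a8, which ran from 6.02 to 92.9 TPM over both strains. S100a9, Ngp and Ltf stayed at or below 0.343, 0.058 and 0.12 TPM and Camp at or below 8.76. The part of neutrophils in the falls of Fcgr1 and Fcgr4 was not tested.

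Fcer1g was 1649 and 1663 TPM at 0 hours, 1626 and 1646 at 1 hour, 1569 and 1523 at 6 hours and 1019 and 1007 at 24 hours in C57. In SPRET it was 1486 and 1496, 1533 and 1415, 1240 and 1215, and 846 and 815 TPM. The 1-hour level was within the error of baseline in both strains, and by 24 hours Fcer1g had fallen by 0.71 (SE 0.041) in C57 and by 0.84 (SE 0.041) in SPRET. Fcgrt was 14.4 to 20.0 TPM in C57 and 45.8 to 52.6 in SPRET over all times, with no overlap. Its fall in C57 at 24 hours (-0.25, SE 0.085, adjusted p = 0.0332) did not pass without any 1 of the 4 libraries compared (-0.27 to -0.23).

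Over the 3 times and both strains, 17 of the 36 tests of the 6 genes against basal passed. At 1 hour 3.95% of all genes passed in C57 and 8.75% in SPRET, at 6 hours 20.4% and 30.6%, and at 24 hours 39.4% and 36.6%. Between the strains, 23 of 24 tests passed, where 60.7%, 62.0%, 62.3% and 63.4% of all genes did so at 0, 1, 6 and 24 hours. Of 18 tests of a difference in response, 4 passed, against shares of 2.32%, 11.1% and 28.9% of all genes at 1, 6 and 24 hours. These were Fcgr1 and Fcgr2b at 6 and at 24 hours. The differences of Fcgr1 at 6 hours (0.73, adjusted p = 0.0436) and of Fcgr2b at 24 hours (-0.34, adjusted p = 0.0399) did not pass without single libraries. For Fcgr1 these were any of the C57 libraries of 0 and 6 hours among others (0.60 to 0.79), and for Fcgr2b they were 1 library of each of the 4 groups compared (-0.29 to -0.23).

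**Figure D3:**
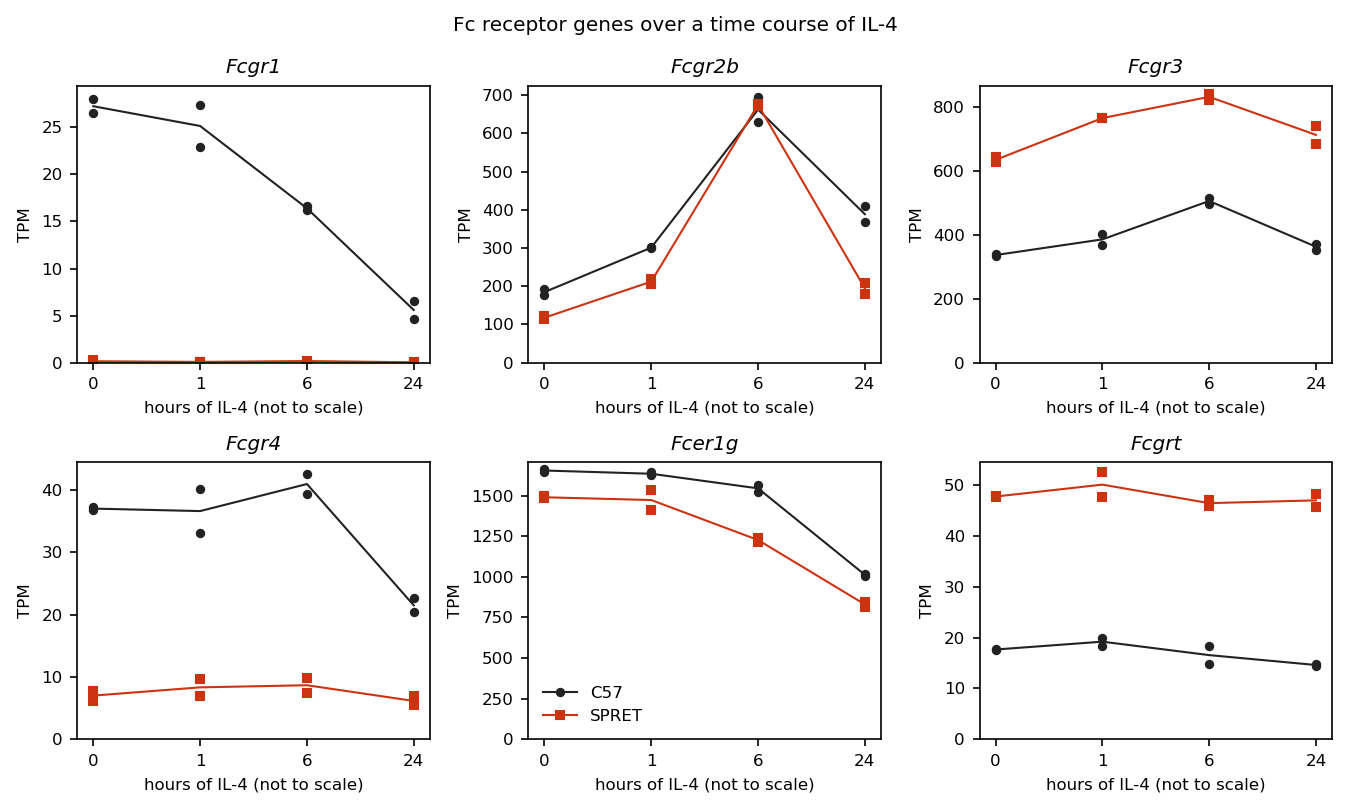
Level in TPM of each Fc receptor gene at 0, 1, 6 and 24 hours of IL-4 in C57 (black circles) and SPRET (red squares); points are libraries, lines join means and each y axis starts at 0. Fcgr2b peaks at 6 hours at 630 to 695 TPM in both strains, and Fcgr1 in C57 drops to 4.62 and 6.56 TPM at 24 hours.

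The same contrast did not always give the same answer in the strain table and in the time course, which hold different libraries and were fitted in separate models. The fall of Fcgr1 in C57 at 24 hours was -0.30 in the first and -2.11 in the second, from a basal mean of 70.2 and 27.2 TPM. Fcgr4 in C57 went up by 0.41 in the first and down by 0.76 (SE 0.165) in the second. Fcgr3 in C57 rose by 1.44 in the first and by 0.10 in the second, which did not pass. The 24-hour response in SPRET against C57 went from -1.13 to 0.06 for Fcgr3 and from -0.54 to 1.98 for Fcgr1. For Fcgr4 this difference was negative in the first and 0.59 in the second, which did not pass. Fcgr2b was higher in SPRET than in C57 at baseline in the first (0.97, SE 0.059) and lower in the second (-0.65, SE 0.08), and after 24 hours of IL-4 the differences were 0.50 (SE 0.059) and -0.99 (SE 0.08). Fcgrt was 0.11 (SE 0.09) higher in SPRET at baseline in the first, which did not pass, and 1.39 (SE 0.085) higher in the second. The SPRET minus C57 signs of Fcgr1, Fcgr3, Fcgr4 and Fcer1g were alike in both tables at 0 and 24 hours. Mast cell and basophil markers summed to 11.1 to 22.1 TPM in SPRET and 0.37 to 1.78 in C57 in the time course, fibroblast markers to 20.4 to 23.9 and 0.232 to 0.478, and dendritic cell markers to 2.42 to 7.83 and 0.132 to 0.564. Within these lists Pdgfrb reached 23.9 TPM, while Col1a1 and Col3a1 stayed at or below 0.099 and 0.048. Zbtb46 reached 6.69 TPM and Xcr1 2.04, with Flt3 and Cd209a at most 0.082 and 0.256. Mcpt8 reached 20.2 TPM, with Cpa3, Gata2 and Kit at most 2.5, 1.39 and 0.288. Whether such cells were present, and their part in the differences, was not tested.

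The third comparison asked what changes when Egr2, an IL-4-induced transcription factor, is deleted. Egr2 was 23.6 and 21.3 TPM in basal Egr2 fl/fl cells and 0.859 and 0.854 in LyzM-Cre Egr2 fl/fl cells. At 24 hours of IL-4 it was 101 and 99.5 TPM against 4.72 and 7.05, so the libraries match their labels. The level of Fcgr1 was higher without Egr2 at every time. In Egr2 fl/fl cells Fcgr1 was 20.0 and 22.1 TPM at 0 hours, 17.8 and 21.2 at 1 hour, 11.4 and 9.14 at 6 hours and 4.65 and 4.3 at 24 hours. In LyzM-Cre Egr2 fl/fl cells it was 52.6 and 53.2, 47.5 and 50.9, 26.4 and 28.9, and 33.1 and 34.7 TPM. The genotypes did not overlap at any time, and in cells without Egr2 the 24-hour level lay above that of 6 hours, a step of 0.29 (SE 0.104, adjusted p = 0.082) that did not pass. The difference between genotypes was 1.29 (SE 0.104, adjusted p = 9.53e-06) at baseline, 1.29 and 1.35 (SE 0.104 each) at 1 and 6 hours and 2.67 (SE 0.104, adjusted p = 3.71e-09) at 24 hours. The fall with IL-4 at 24 hours was -2.01 (SE 0.104) with and -0.63 (SE 0.104) without Egr2, and these differed by 1.38 (SE 0.148, adjusted p = 9.11e-05).

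Fcgr4 followed Fcgr1 in sign. It was 33.2 and 39.4 TPM at 0 hours, 34.2 and 38.7 at 1 hour, 28.0 and 28.5 at 6 hours and 27.2 and 24.9 at 24 hours with Egr2. Without Egr2 it was 55.9 and 54.7, 54.6 and 56.6, 45.9 and 54.6, and 50.0 and 42.8 TPM. The genotypes did not overlap, and the difference was 0.60 (SE 0.105) at 0 and 1 hour, 0.80 (SE 0.105) at 6 hours and 0.81 (SE 0.105, adjusted p = 8.25e-05) at 24 hours. The response to IL-4 of Fcgr4 did not differ beyond its error (0.21, 95% interval -0.12 to 0.53, at 24 hours).

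Fcgr2b in Egr2 fl/fl cells was 96.2 and 101 TPM at 0 hours, 206 and 191 at 1 hour, 571 and 541 at 6 hours and 447 and 438 at 24 hours. In LyzM-Cre Egr2 fl/fl cells it was 76.6 and 79.6, 198 and 207, 670 and 654, and 701 and 677 TPM. It began lower without Egr2 (-0.33, SE 0.046, adjusted p = 0.000515), did not differ beyond the error at 1 hour (0.03, SE 0.046) and ended higher (0.64, SE 0.046, adjusted p = 5.58e-07). With Egr2 it fell between 6 and 24 hours by 0.33 (SE 0.046), and without Egr2 the step was 0.06 (SE 0.046, adjusted p = 0.434), where 27.9% and 17.6% of all genes passed. The rise over 24 hours was 2.15 (SE 0.046) with and 3.12 (SE 0.046) without Egr2, a difference of 0.97 (SE 0.065, adjusted p = 3.7e-06).

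Fcgr3 was 292 and 287 TPM at 0 hours and 551 and 549 at 24 hours in Egr2 fl/fl cells, against 241 and 233 and then 663 and 622 in LyzM-Cre Egr2 fl/fl cells. It was lower without Egr2 at 0, 1 and 6 hours (-0.29, -0.24 and -0.21, SE 0.036 each) and higher at 24 hours (0.22, SE 0.036), where median ratio scaling took the difference to 0.09, which did not pass. The rise over 24 hours differed by 0.51 (SE 0.052, adjusted p = 6.25e-05).

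Fcer1g was 1666 and 1507 TPM at 0 hours and 1095 and 1125 at 24 hours with Egr2, and 1785 and 1809 and then 1418 and 1565 without it. It fell with IL-4 in both, by 0.51 (SE 0.053) and 0.27 (SE 0.053), and was 0.42 (SE 0.053, adjusted p = 5.79e-05) higher without Egr2 at 24 hours. The basal difference of 0.18 (SE 0.053, adjusted p = 0.046) did not pass without the second Egr2 fl/fl replicate (0.11) or without either LyzM-Cre Egr2 fl/fl replicate (0.17 and 0.19). At 1 hour the difference of 0.21 (SE 0.053, adjusted p = 0.0221) did not pass without any 1 of the 4 libraries (0.21 to 0.22).

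Fcgrt, for which no IL-4 difference passed in the 5 strains, was 19.0 and 20.4 TPM at 0 hours, 19.5 and 20.0 at 1 hour, 26.8 and 18.6 at 6 hours and 16.8 and 16.2 at 24 hours with Egr2. Without Egr2 it was 26.6 and 26.8, 25.9 and 22.5, 31.5 and 32.4, and 45.2 and 43.0 TPM. At 24 hours the genotypes stood apart by 1.37 (SE 0.126, adjusted p = 4.64e-06), and Fcgrt rose with IL-4 in the cells without Egr2 (0.70, SE 0.126, adjusted p = 0.00111). The response at 24 hours differed by 0.95 (SE 0.178, adjusted p = 0.00419). At 6 hours the difference of 0.50 (SE 0.126) did not pass without the second Egr2 fl/fl replicate (0.24). Its partner B2m was 0.53 higher without Egr2 at 24 hours.

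Between the genotypes, 16 of 24 tests of the 6 genes were higher without Egr2, 4 were lower and 4 did not pass. By time, 5, 4, 5 and 6 of 6 genes passed at 0, 1, 6 and 24 hours, where 11.5%, 11.4%, 20.6% and 37.4% of all genes did so. Those higher without Egr2 were 5.95%, 6.04%, 11.5% and 25.9% of all genes and those lower 5.56%, 5.37%, 9.12% and 11.5%. Over 2-fold were Fcgr1 at all 4 times and Fcgrt at 24 hours, against 0.853%, 1.06%, 2.30% and 4.55% of all genes. The median over all genes was 0.12 at 24 hours. For the response to IL-4, 23 of 36 tests passed, with 3.24%, 25.5% and 30.3% of all genes at 1, 6 and 24 hours in Egr2 fl/fl cells and 4.13%, 29.8% and 28.0% in LyzM-Cre Egr2 fl/fl cells. A difference in response passed in 5 of 18 tests, all with a positive sign: Fcgr2b at 6 hours (0.59, SE 0.065) and Fcgr1, Fcgr2b, Fcgr3 and Fcgrt at 24 hours. Among all genes the shares were 0.0166%, 1.10% and 12.6% at 1, 6 and 24 hours. Neutrophil markers moved with genotype, without overlap at any time: with and without Egr2 their sum was 58.4 to 62.8 and 39.7 to 43.4 TPM at 0 hours, 67.7 to 83.5 and 38.3 to 49.8 at 1 hour, 40.3 to 53.9 and 17.0 to 22.9 at 6 hours, and 17.3 to 20.5 and 9.98 to 15.6 at 24 hours. That sum was mostly S100a8 (up to 57.8 TPM) and S100a9 (up to 23.2), while Camp, Ltf and Ngp reached 0.931, 0.607 and 1.86 TPM. The macrophage marker sum, mostly Lyz2 (8044 to 22023 TPM), was also lower without Egr2 at each time, with no overlap. With and without Egr2 it was 24337 to 25888 and 20631 to 20670 TPM at 0 hours. At 24 hours it was 15404 to 15627 and 12692 to 13234 TPM. Both marker sums were lower where most of the 6 genes were higher. The part of neutrophils, or of the macrophage marker difference, in the results was not tested.

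Around the receptors, 9 of the 18 activating signal genes were higher without Egr2 at 24 hours, 3 were lower and 6 did not pass, where 25.9% of all genes were higher and 11.5% lower. Lat, which IL-4 raised in every strain, was lower by 2.76 log2 units, and Fgr (0.73), Vav1 (0.51) and Was (0.48) were higher. Of the 8 inhibitory genes 4 were higher and 1 was lower, with Ptpn6 at 0.51. Trim21, the intracellular antibody receptor, was higher by 0.94. Of 61 genes tested within 250 kb of the 6 genes, 16 were higher and 3 were lower, a share of higher genes close to that of all genes, with a median of 0.08 against 0.12 over all genes.

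**Figure D4:**
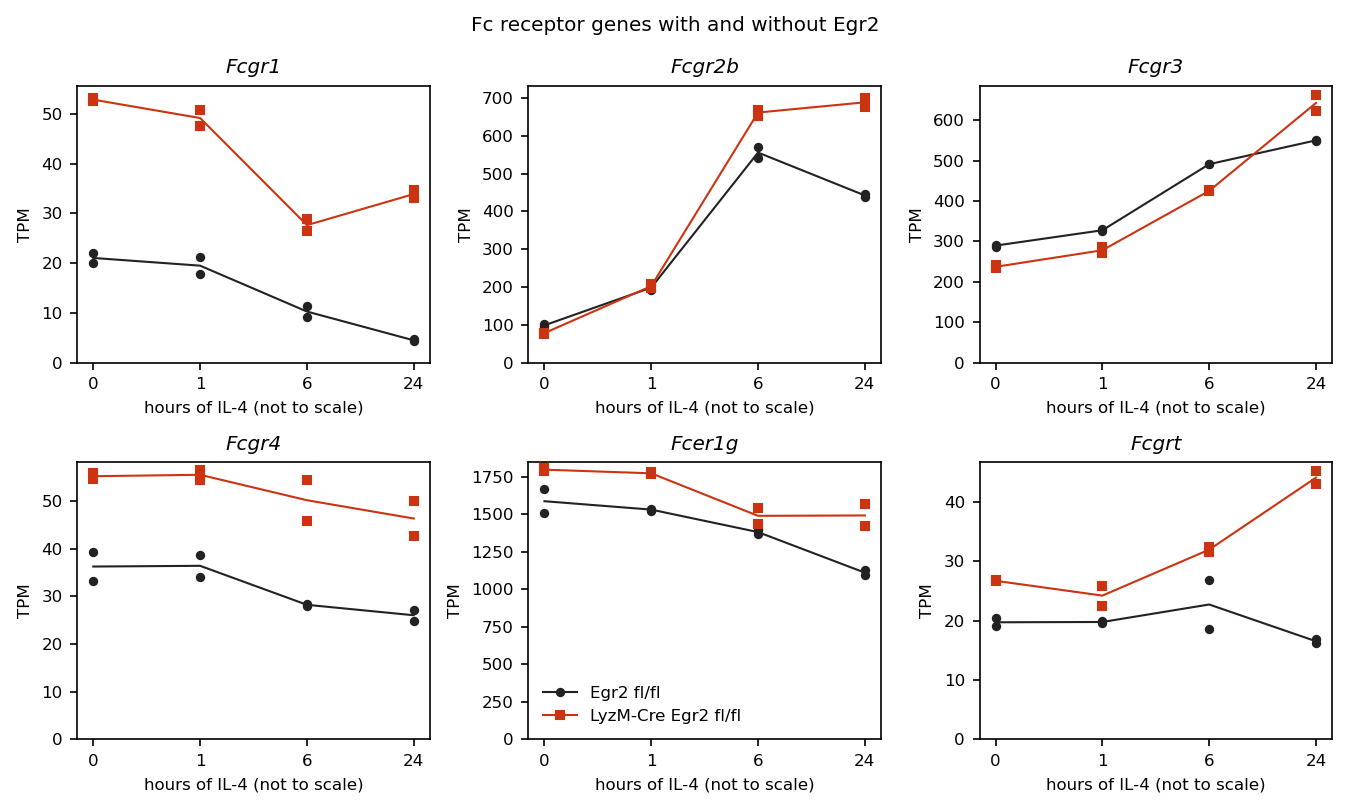
Level in TPM of each Fc receptor gene at 0, 1, 6 and 24 hours of IL-4 in Egr2 fl/fl (black circles) and LyzM-Cre Egr2 fl/fl (red squares) cells; points are libraries, lines join means and each y axis starts at 0. Fcgr1 of cells without Egr2 stays above that of controls at each time, and Fcgr2b and Fcgrt separate most at 24 hours.

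The F1 cells asked whether alleles differ when both sit in the same nucleus. The values are labelled TPM and, according to the methods, come from read counts weighted by the reads that overlap variants of each allele. Depth is therefore not known and levels are not comparable with those above. Only the ratio of alleles within a library was tested (C57 minus SPRET, log2 of the value + 1). The length listed for each of the 6 genes in this table is its whole span (8234 bases for Fcgr3, whose exons are 1346), so these values may be per span; a length scales both alleles of a gene alike and touches their ratio only through the added 1. Fcgr1 at baseline was 28.9 on the C57 and 2.04 on the SPRET allele in the first library and 32.9 and 3.98 in the second. Fcgr4 was 19.3 and 6.87, and 20.0 and 7.14. Fcgr2b was 64.1 and 14.6, and 57.4 and 13.5. In each of these genes the C57 allele was higher in both libraries, by 3.03 (SE 0.307, adjusted p = 0.0174) for Fcgr1, 1.37 (SE 0.082, adjusted p = 0.009) for Fcgr4 and 2.04 (SE 0.09, adjusted p = 0.00786) for Fcgr2b. Fcgr3 was 649 and 333, and 548 and 307, a difference of 0.90 (SE 0.091). Fcer1g was 1694 and 1368, and 1555 and 1356 (0.25, SE 0.109, adjusted p = 0.209). Fcgrt was the one gene with the SPRET allele higher, at 31.6 and 60.0, and 40.6 and 75.5, a difference of -0.89 (SE 0.105, adjusted p = 0.0206).

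After IL-4 Fcgr1 was 5.57 on the C57 and 0.358 on the SPRET allele in the first library and 3.74 and 1.03 in the second. Fcgr2b was 126 and 55.7, and 124 and 63.0. Fcgr3 was 670 and 551, and 668 and 496. Both alleles of Fcgr1 were thus lower and both alleles of Fcgr2b higher than at baseline in every library. Fcgr2b still differed between alleles, by 1.06 (SE 0.09, adjusted p = 0.0217), as did Fcgr4 (0.92, SE 0.082, adjusted p = 0.0242) and Fcgrt (-1.08, SE 0.105, adjusted p = 0.0261). Fcgr1 (1.75, SE 0.307, adjusted p = 0.0517) and Fcgr3 (0.35, SE 0.091, adjusted p = 0.0958) did not pass.

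Across both conditions, 8 of 12 allele tests passed, where 14.2% of 11490 genes passed at baseline and 8.41% after IL-4. With a single basal library left out, either one, 0 of the 12 passed. No gene of the set passed limma's test of whether the allele difference changed with IL-4, and 0.0261% of all genes did. Of those 6 tests, 4 had an unadjusted p under 0.05, and the differences of Fcgr2b and Fcgr3 were -0.97 (SE 0.127) and -0.54 (SE 0.128).

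**Figure D5:**
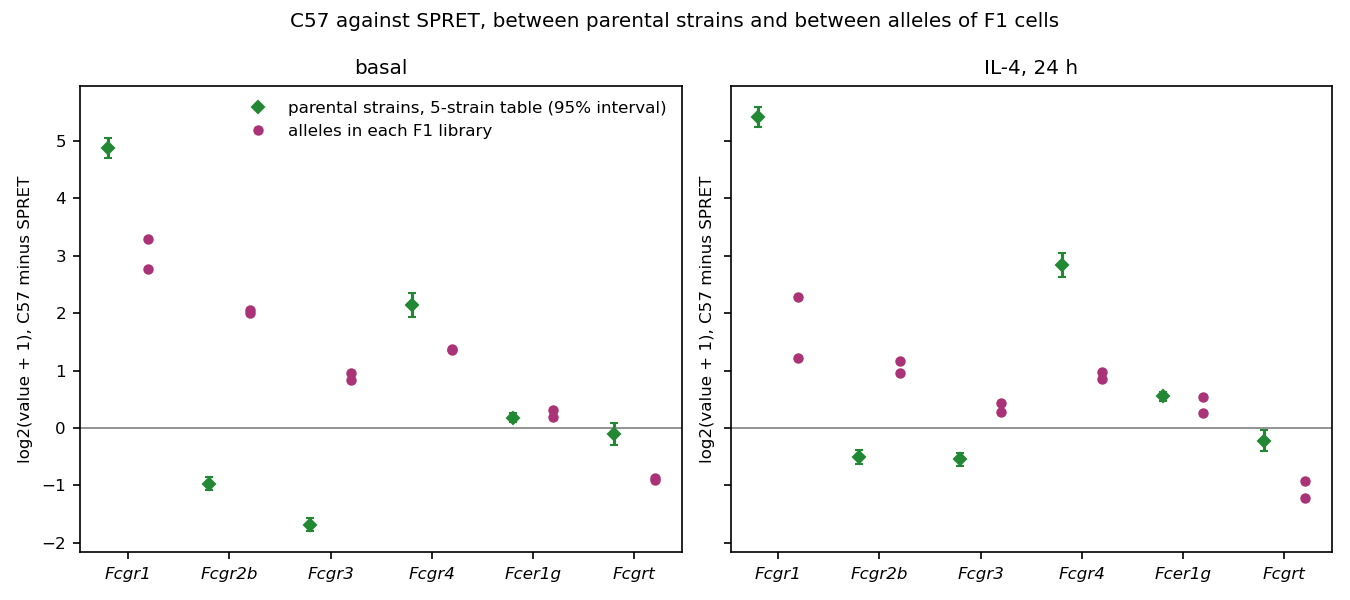
Difference in log2(value + 1), C57 minus SPRET, at baseline (left) and after 24 hours of IL-4 (right): green diamonds are the parental strains of the 5-strain table with the 95% interval and purple circles are the alleles in each F1 library. Fcgr1 and Fcgr4 lie above 0 in both, while Fcgr2b and Fcgr3 lie below 0 between strains and above 0 between alleles.

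The sign between alleles was that between the parental strains for Fcgr1 and Fcgr4, which were higher in C57 in both other tables. For Fcgr3 it was opposite: the C57 allele was higher in F1 cells, while SPRET macrophages had more Fcgr3 than C57 in both tables. For Fcgr2b the F1 sign was that of the time course and not that of the strain table. Fcgrt was higher on the SPRET allele and, at baseline, in SPRET cells of the time course, while the strain table gave 0.11. These tables hold different libraries, and the difference between them was not tested.

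In the C57 and NOD cross, the values scattered more and 5 genes could be tested. The lengths listed there are those of exons (1346 for Fcgr3), so levels are not comparable between the crosses. Fcgr1 at baseline was 124 on the C57 and 126 on the NOD allele in the first library and 131 and 94.3 in the second, and after IL-4 it was 17.1 and 35.8, and 27.1 and 6.24. All IL-4 values lay below all basal ones on either allele, whereas NOD macrophages had more Fcgr1 after IL-4. Fcgr2b at baseline was 266 and 210, and 201 and 204, and after IL-4 it was 1098 and 847, and 867 and 508. The NOD allele of Fcgr2b was higher with IL-4 in both libraries, where NOD macrophages had shown no change beyond the error. Fcgr3 at baseline was 4154 and 3872, and 4427 and 4327, alleles that differed by little although the basal difference between NOD and C57 macrophages was -1.37 log2 units. The difference between the F1 and the strain table was not tested. Fcgr4 was 153 and 143, and 246 and 290, and Fcer1g was 8018 and 7406, and 8154 and 8882. Fcgrt was listed at 0 in all libraries and on both alleles. Of 10 allele tests and 5 tests of a change with IL-4, 0 passed in limma and 1 of the 15 had an unadjusted p under 0.05, where 0.312% of 5121 genes passed at baseline, 0.293% after IL-4 and 0% for the change.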

How the data were processed

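Poly(A) RNA of mouse macrophages was sequenced as 75-base single-end reads. Per the labels and methods, the authors aligned reads with STAR to the genome of each strain, moved positions to mm10 and counted exon reads with HOMER. The deposited TPM values are scaled to exon length and to the same total in each library. The deposited F1 columns are labelled TPM and are treated here as a score per allele. According to the methods, read counts were weighted by the ratio of reads over variants, times 10, and given to each parental genome. How these became TPM is not stated. The lengths listed are exon lengths, except in the C57 and SPRET cross, which lists gene spans. The deposited tables also hold DESeq2 fold changes and p-values of the authors, which were not used, and a human table was not used here.

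TPM values were tested with limma 3.58.1 in R 4.3.3 on log2(TPM + 1), one model of group means per table with a trended prior, for genes that reached 1 TPM in 2 or more libraries, with Benjamini-Hochberg adjustment over all genes tested. Allele scores were tested as the within-library log2 difference. On simulated tables with a log2 change of 2, 100% of changed genes were recovered for the strains, 98.5% for the time course, 98% for the Egr2 table, 83% for C57 and SPRET alleles and 18.5% for C57 and NOD alleles. The changed genes had a higher mean level than the filter required, and recovery meant passing with over 2-fold. These shares therefore do not cover smaller changes or low genes. The genes and lists were chosen with earlier results of these data known. Named genes are the 6 receptor genes, list members with the largest changes that passed, and the 3 genes most alike to each. Alternatives were other pseudocounts, filters, scalings, fits and single libraries left out.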

Additional observations from a re-analysis of the deposited data

Results flagged for a closer look

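A response to IL-4 differed by over 2-fold between groups, by a test of the difference itself, in 7 cases. In the strain table these were Fcgr1 in BALB against C57 (-1.11, limma adjusted p = 2.75e-07), Fcgr2b in NOD against C57 (-1.78, adjusted p = 9.02e-14), and Fcgr3 against C57 in BALB (-1.22, adjusted p = 5.8e-11), NOD (-1.03, adjusted p = 6.12e-10) and SPRET (-1.13, adjusted p = 5.69e-11). All share the C57 libraries. The Fcgr1 difference rests on a C57 fall from a mean of 70.2 to 57.1 TPM. In the time course the C57 mean of Fcgr1 went from 27.2 to 5.59 TPM at 24 hours, and BALB was not part of it. The Fcgr3 differences rest on a C57 rise of 1.44, for which the time course gave 0.10 (adjusted p = 0.126), and there the 24-hour Fcgr3 response of SPRET and C57 differed by 0.06 (adjusted p = 0.572). In Egr2 fl/fl cells Fcgr3 rose from a mean of 289 to 550 TPM over 24 hours. In the time course it was Fcgr1 at 24 hours in SPRET against C57 (1.98, adjusted p = 2.39e-05), where SPRET was near 0 TPM throughout. In the Egr2 table it was Fcgr1 at 24 hours in LyzM-Cre Egr2 fl/fl against Egr2 fl/fl cells (1.38, adjusted p = 9.11e-05). No sample of any Fc receptor gene could be tested as an outlier, since groups held 2 or 3 libraries.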

How the results depend on the processing

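Of the values computed for single genes under other settings, 2896 kept their side of the threshold, 27 newly passed and 58 no longer passed. Another 12 changed sign where the reported or the new result passed. With single libraries left out, the counts were 2014, 8, 82 and 0. A change of sign where neither result passed was counted as keeping its side. The cause of the changes of sign was not tested. Median ratio scaling gave 0.46 for Fcer1g and 0.43 for Fcgr4 between NOD and BALB at baseline and -0.16 for Fcgr2b between SPRET and PWK after IL-4. Quantile normalization gave, for Fcer1g at baseline, 0.38, 0.08, 0.48 and 0.04 in SPRET against C57, BALB, NOD and PWK, 0.2 in BALB against C57 after IL-4, 0 in SPRET against C57 at 1 hour and -0.03 for LyzM-Cre Egr2 fl/fl against Egr2 fl/fl at 0 and 1 hour. A pseudocount of 5 gave 0.02 for the Fcgr1 response in SPRET against C57 (-0.54 as reported).

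The 4 differences in response of the time course became 2 with a pseudocount of 0.1 and 2 with no filter. The 8 alleles that passed in the C57 and SPRET cross became 5 with no filter and 3 with the replicate block, and 0 to 9 without single libraries. In no strain or genotype were the deviations of same-numbered samples correlated above 0.1 in every pair (0.089 to 0.333 in BALB and 0.033 to 0.045 in SPRET, where all were above 0), so the replicate number was not used as a pairing; as a block, it also gave a passing Fcgrt rise in SPRET (0.22).

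Without single libraries, the strain table kept 11 to 12 genes higher and 11 to 12 lower with IL-4, 50 to 53 and 54 to 57 strain pairs at baseline and after IL-4, and 15 to 17 differences in response. The time course kept 9 to 11 higher, 6 to 7 lower, 22 to 23 between strains and 2 to 4 in response. The Egr2 table kept 14 to 17 higher and 4 to 4 lower between genotypes, 12 to 15 higher and 8 to 10 lower with IL-4, and 5 to 6 in response.

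The log2 change of the activating to inhibitory ratio with IL-4 moved with the genes summed. With Fcgr4 alone it was -1.44 in C57, -1.22 in BALB, -1.61 in PWK, -1.69 in SPRET and 0.02 in NOD, and without Fcgr3 it was -1.78 in C57, -1.43 in BALB, -1.68 in PWK, -1.79 in SPRET and 0.27 in NOD. Without single libraries it was -0.83 to -0.77 in C57, -0.78 to -0.7 in BALB, 0.26 to 0.35 in NOD, -0.31 to -0.26 in PWK and -1.11 to -1.06 in SPRET. With 2 libraries per group, a left-out library leaves 1 that is assumed to vary like the others. Depth limits Fcgr1 in SPRET, where levels were close to 0, and is not known for the F1 alleles.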
